A study of Homo sapiens with 9 samples.

Results

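Zinc finger transcription factor genes were examined in WI-38 cells, a diploid fibroblast line from human lung, with and without doxorubicin. The members were chosen by symbol alone, as rows named ZNF, ZFP, ZSCAN, ZKSCAN or ZBTB followed by a digit and with no hyphen. This rule found 132 of the 6499 genes in the deposited table, of which 112 had ZNF names, 5 ZFP names, 3 ZSCAN names and 12 ZBTB names, while no ZKSCAN gene was listed. In all, 128 were protein-coding and 4 were pseudogenes (ZNF56, ZNF542P, ZNF731P and ZBTB45P1). The 3 control libraries came from cells at population doubling 30 that were kept in DMSO, the solvent. The 3 doxorubicin libraries came from cells of the same doubling given 1 μM doxorubicin, a topoisomerase II poison that breaks DNA, for 12 h and then DMSO medium for 48 h. The 3 libraries of cells given oridonin after doxorubicin were not analysed here. The study states in general that its results rest on independent experiments, but neither it nor the labels say for these libraries whether they came from separate cultures. The p-values then measure only the spread between these libraries, which may be technical.

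Most C2H2 zinc finger proteins hold a row of small domains, each folded around a zinc ion, that read a DNA sequence. Many carry a KRAB domain, which recruits the TRIM28 co-repressor and histone methylation and is known for silencing transposable elements. The ZBTB proteins carry a BTB domain, which forms dimers and binds other co-repressors, and the SCAN domain of the ZSCAN proteins joins family members to each other. In human cells a large share of the KRAB genes lies in clusters on chromosome 19. A name of this family does not fix the function: ZFP36 and its relatives have CCCH fingers and bind RNA, and several others act in the cytoplasm.

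The deposited table held only genes that the authors had already selected at a fold change over 1.2 and p under 0.05 on these same 6 libraries. That selection rests on the authors' own fold change and p columns, which are not the ratios of the deposited TPM. By mean TPM, 19 of the 130 members with a control mean above 0 differed by less than 1.2-fold. The values below therefore describe the size and spread of the changes and are no second test of them. Of the 600 protein-coding genes in GENCODE 29 whose names follow the rule, 128 (21.3%) were listed, against 29.5% of all protein-coding genes. On chromosome 19 the share was 15.7%, and elsewhere it was 25.7%. In TPM (a level per transcript length that adds up to a fixed total over all genes of a library), the listed genes took between 54.3% and 54.8% of that total in the control libraries and between 58.6% and 59.97% after doxorubicin. Over the 5721 genes that averaged 1 TPM or more, log2(TPM + 1) correlated at r of 0.992 to 0.995 within groups. Between groups r was 0.935 to 0.958. Of 6 genes used to check the labels, the p53 targets CDKN1A, MDM2, GDF15 and BBC3 rose after doxorubicin and the proliferation genes MKI67 and TOP2A fell. Of 19 fibroblast markers 10 were listed, and their summed level was 12124 to 12504 TPM in control and 10352 to 12631 TPM after doxorubicin, with 9 called lower and FN1 higher. Of 10 epithelial markers 4 were listed (KRT8, KRT18, KRT19 and CLDN4), with sums of 140 to 156 TPM in control and 286 to 311 TPM after doxorubicin, and EPCAM and CDH1 were not among the listed genes. KRT19 made up most of these sums (mean 107 and then 246 TPM) and KRT18 was also called higher, while CLDN4 was called lower (log2 change -0.61) and KRT8 was not called (0.19, adjusted p = 0.302, limma). The endothelial list had TEK alone (8.45 to 9.83 TPM, then 2.29 to 3.27 TPM), and the immune list had CD68 (44.9 to 49.0 TPM, then 87.3 to 93.4 TPM) and PTPRC at no more than 0.62 TPM. The part of these markers in the results below was not tested. In bulk RNA, fewer cells that express a gene and less RNA per cell cannot be told apart.

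Of the 132 zinc finger genes, 118 reached 1 TPM or more on average over the 6 libraries and were fitted on log2(TPM + 1) together with all 5721 such genes. At a fold over 1.2 and a Benjamini-Hochberg adjusted p under 0.05 (limma, adjusted over all 5721 genes), 67 of the 118 were called lower after doxorubicin (56.8%), 13 were called higher (11.02%) and 38 were not called. The background was 48.5% lower, 22.7% higher and 71.2% in either direction over all genes tested. The median log2 fold change of the 118 was -0.41, and that of all genes tested was -0.28. When each control library was set against each doxorubicin library, the members' median over these 9 pairs ranged from -0.54 to -0.15. In 66 of the 118 every doxorubicin library lay below every control library, and in 20 every one lay above, while 32 overlapped. The background for groups that do not overlap was 48.4% lower, 32.3% higher and 80.7% in either direction. The summed level of all 132 was 1275, 1315 and 1201 TPM in control and 1024, 1001 and 1096 TPM after doxorubicin.

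**Figure D1:**
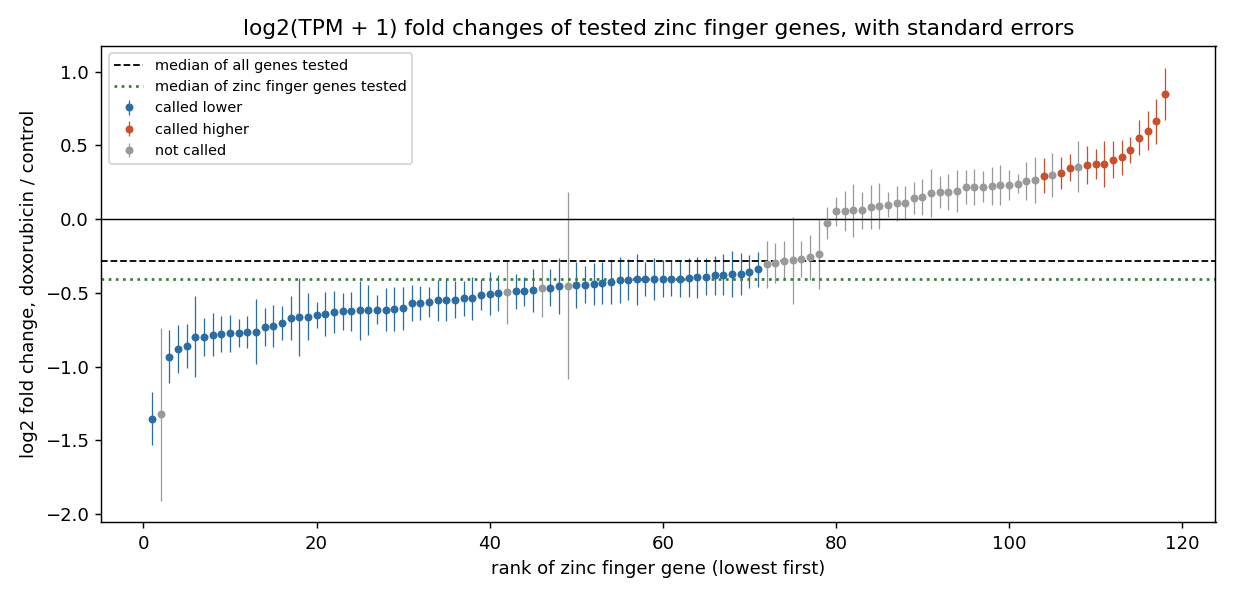
Log2 fold change on log2(TPM + 1), doxorubicin over control, of the 118 tested zinc finger genes in order, with limma's standard error (bars), colour by call, and the medians of the zinc finger genes (dotted, -0.41) and of all genes tested (dashed, -0.28). The changes ran from -1.35 to 0.85 on the TPM scale, and the sign of those near 0 depended on the scaling of the libraries.

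The balance of rises and falls depended on the scale set for the libraries. Median-ratio scaling over the listed genes moved the median of all genes to -0.08 and gave 33 zinc finger genes higher and 47 lower, with 43.8% of all genes higher and 37.5% lower. Quantile normalization moved it to -0.02 and gave 35 higher and 20 lower, with 32.9% of all genes higher and 29.2% lower. Rises thus made up 16.2% of the members' calls on TPM, 41.2% with median-ratio scaling and 63.6% with quantile normalization, while over all genes they made up 31.9%, 53.9% and 53.0% of calls. All 13 genes called higher on TPM were also higher on both other scales (11.02% of 118, against 21.4% of all genes), and 7 of the 13 kept the call when any of the 6 libraries was left out (ZBTB48, ZNF56, ZNF385A, ZNF576, ZNF580, ZNF688 and ZNF837). In the other direction 20 genes were lower on all 3 scales (16.9%, against 26.9% of all genes), and these 20 were also called lower on TPM when any of the 6 libraries was left out. They were ZFP91, ZFP36, ZFP36L1, ZFP36L2, ZBTB4, ZBTB38, ZNF23, ZNF106, ZNF146, ZNF207, ZNF300, ZNF529, ZNF532, ZNF542P, ZNF609, ZNF614, ZNF639, ZNF655, ZNF721 and ZNF770.

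**Figure D2:**
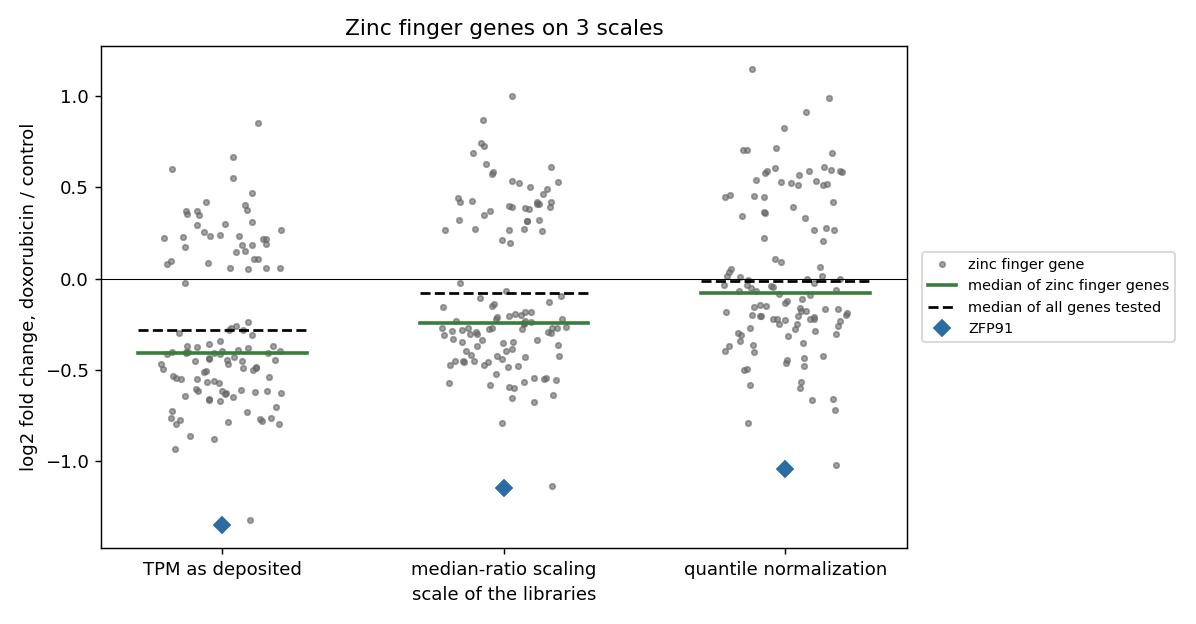
Log2 fold change of the tested zinc finger genes (grey points, spread sideways at random; ZFP91 as a diamond) on TPM as deposited, after median-ratio scaling and after quantile normalization. The median of these genes (solid line) went from -0.41 to -0.24 and -0.08, that of all genes tested (dashed) from -0.28 to -0.08 and -0.02, and ZFP91 from -1.35 to -1.15 and -1.04.

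ZFP91, a zinc finger protein known as an atypical E3 ubiquitin ligase, fell the most of the members called lower, on TPM and on both other scales. Its level was 13.1, 17.7 and 16.2 TPM in control and 4.31, 5.02 and 7.52 TPM after doxorubicin. The highest doxorubicin library thus lay well below the lowest control library. The mean went from 15.7 ± 2.38 to 5.62 ± 1.69 TPM (SD, n = 3 each), which is 2.79-fold lower. The log2 fold change was -1.35 ± 0.18 (SE; adjusted p = 0.000147, limma), and between -1.55 and -1.21 when a library was left out. An exact two-sided permutation test of 3 against 3 libraries cannot go below p = 0.10, and ZFP91 reached that value. The gene (ENSG00000186660) spans chr11:58579111-58621042 on the plus strand of GRCh38 in GENCODE 29. Of the 60-base stretches of its transcript, 31.5% also occur in other genes, mainly in ZFP91-CNTF, a readthrough transcript into the next gene, so the counting could divide reads between the 2 genes.

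The study measured ZFP91 by quantitative PCR with a primer pair, shown here because it marks the stretch of the transcript that assay read. The forward primer matches exon 5 at chr11:58611028-58611048 and the reverse primer exon 7 at chr11:58612304-58612326, both in the coding sequence of ENST00000316059.6, which has 11 exons. Their product is 211 bp long on the spliced transcript, and both primers also match ZFP91-CNTF.
ZFP91 forward primer: tgagacctacaaaccccactt
ZFP91 reverse primer: ccttttgggtaaacgtggacttt

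Of the members below the filter on low values, ZNF367, a factor linked to the cell cycle, had the lowest level left after doxorubicin relative to control. It was at 1.22, 1.64 and 1.24 TPM in control and at 0.04, 0.06 and 0.07 TPM after doxorubicin. Its means of 1.37 ± 0.237 and 0.0567 ± 0.0153 TPM (SD, n = 3 each) differ 24.1-fold, with a depth that is unknown. In a fit without the filter the log2 fold change was -1.16 ± 0.10 (SE; adjusted p = 2.44e-05, limma), which understates the change of so low a gene. The 250 bases before the RefSeq start of ZFP91 and of ZNF367 are shown for the largest fall above and the largest fall below the filter, genes chosen after their values were seen. Capitals mark matches, on either strand, to the CCAAT box (CCAAT), the GC box (GGGCGG) and the E2F motif TTTCCCGC. The sequences are of GRCh38.p14, at chr11:58578813-58579062 (plus strand) and chr9:96418371-96418620 (minus strand), each written 5′ to 3′ along its gene.
ZFP91: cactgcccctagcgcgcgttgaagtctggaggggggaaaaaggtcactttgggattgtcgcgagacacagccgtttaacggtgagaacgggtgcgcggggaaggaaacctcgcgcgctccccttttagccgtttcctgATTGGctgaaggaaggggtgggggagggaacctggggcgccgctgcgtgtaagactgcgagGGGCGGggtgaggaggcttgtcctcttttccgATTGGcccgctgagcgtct
ZNF367: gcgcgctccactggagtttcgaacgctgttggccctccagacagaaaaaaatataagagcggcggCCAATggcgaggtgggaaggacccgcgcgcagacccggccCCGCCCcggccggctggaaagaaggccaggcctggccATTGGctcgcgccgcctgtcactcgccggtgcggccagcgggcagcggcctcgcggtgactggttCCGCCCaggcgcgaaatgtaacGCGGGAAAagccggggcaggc

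The ZFP91 sequence held CCAAT boxes on the reverse strand that begin 112 and 19 bases before the start and a GC box 51 bases before it. The ZNF367 sequence held CCAAT boxes at 185 and 108 bases, GC boxes at 145 and 43 bases, and the E2F motif on the reverse strand 21 bases before the start. Windows of 300 bases (250 before the start and 50 after) were at hand for 114 of the 132 members, 171 windows in all, and were set against 35116 windows of all genes. TTTCCCGC was in 2.92% of the members' windows and 1.63% of all windows, and another E2F motif, TTTGGCGC, in 2.92% and 0.652%. Each was in only 5 of the 171 windows, and a gene can have several windows. TTTCCCGC was in 3 of 93 windows of genes called lower and 0 of 16 of genes called higher. For TTTGGCGC these counts were 2 and 1. The element TTTGAA was in 7.02% and 15.2%, the CCAAT box in 35.7% and 34.6%, and the GC box in 57.3% and 45.0%. The median GC content was 62.7% in the members' windows and 58.7% in all. By call it was 61.7% for genes called higher, 62.0% for genes called lower and 65.0% for genes not called.

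The RNA-binding members with CCCH fingers were among the most abundant and fell on all 3 scales. ZFP36 (tristetraprolin), which binds AU-rich elements and speeds the decay of inflammatory mRNAs, had the highest control level of all members. It was at 103, 123 and 84.4 TPM in control and at 53.4, 60.9 and 63.9 TPM after doxorubicin, with no overlap. Its log2 fold change was -0.78 ± 0.13 (SE; adjusted p = 0.000546, limma). Its relative ZFP36L1 went from 62.0, 59.3 and 57.2 TPM to 34.4, 30.2 and 39.3 TPM, a log2 change of -0.77 ± 0.10. ZFP36L2 went from 33.3, 32.5 and 27.9 TPM to 20.8, 21.2 and 23.9 TPM, a log2 change of -0.49 ± 0.10. These were the 3 members with CCCH fingers. Their summed level was 170 to 215 TPM in control and 109 to 127 TPM after doxorubicin.

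All 5 genes with ZFP names were called lower on TPM and after median-ratio scaling, where 48.5% and 37.5% of all genes were lower. After quantile normalization 4 of 5 were, with 29.2% of all genes. The exception was ZFP1, a KRAB gene, at 2.87, 6.78 and 2.44 TPM in control and 1.53, 1.47 and 2.15 TPM after doxorubicin. Control replicate 2 stood well above the other control libraries. The log2 change of ZFP1 was -0.80 ± 0.28 (SE; adjusted p = 0.0244, limma) and -0.43 without control replicate 2. Its call was lost without doxorubicin replicate 1 (adjusted p = 0.067) and without doxorubicin replicate 2 (adjusted p = 0.0797).

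Of the 11 tested ZBTB genes 8 were called lower and 1 higher on TPM, against 5 and 2 after median-ratio scaling and 2 and 2 after quantile normalization, against the shares of all genes given above for each scale. ZBTB38, which binds methylated CpG sites, went from 15.6, 17.7 and 14.4 TPM to 7.99, 6.76 and 10.4 TPM. All 3 doxorubicin libraries lay below the controls, with a log2 fold change of -0.86 ± 0.15 (SE; adjusted p = 0.000632, limma). ZBTB4, another methyl-CpG binder and the most abundant gene of the class, went from 18.9, 20.6 and 19.1 TPM to 12.9, 11.8 and 14.1 TPM (log2 change -0.56). ZBTB2 went from a control range of 8.51 to 8.59 TPM to 5.80, 4.87 and 6.12 TPM. Its log2 change was -0.54 on TPM, and it was not among the genes called on all 3 scales. The sole rise was ZBTB48 (TZAP), a protein that binds telomere repeats and limits telomere length. It was at 9.23, 8.26 and 8.91 TPM in control and 11.1, 11.4 and 14.0 TPM after doxorubicin. The groups did not overlap, and the log2 fold change was 0.42 ± 0.12 (SE; adjusted p = 0.00953, limma). ZBTB43 spread widely, at 10.2, 6.37 and 14.4 TPM and then 9.03, 1.57 and 2.16 TPM, and its log2 change of -1.32 ± 0.59 was not called (adjusted p = 0.084, limma). Without doxorubicin replicate 1 it was -1.93 and called lower, and without doxorubicin replicate 2 it was -0.94 and not called.

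Among partners of BTB proteins and BTB zinc finger factors with other names, 10 of 18 were listed. Of these 8 were called lower and 1 higher on TPM, 6 and 2 after median-ratio scaling, and 2 and 2 after quantile normalization. On TPM that was 80.0% and 10.0%, against 48.5% and 22.7% of all genes tested. The lower genes included NCOR1, a scaffold of the histone deacetylase 3 complex (log2 change -0.43), and the repressors BCL6 (-0.52) and HIC1 (-0.59). HDAC5, a class II histone deacetylase, was called higher (0.30).

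KRAB genes and members without KRAB had nearly the same median change over all tested members, although their levels differed. A KRAB domain was found in 50 of the 128 coding members and 43 of those were tested. On TPM 22 were called lower (51.2%) and 2 higher (4.65%), with a median log2 change of -0.40. After median-ratio scaling 16 were lower and 11 higher (median -0.27), and after quantile normalization 6 were lower and 14 higher (median -0.09). Over all genes the shares lower and higher on these 3 scales were 48.5% and 22.7%, 37.5% and 43.8%, and 29.2% and 32.9%. The 72 tested coding members without KRAB had a median of -0.41 on TPM (43 lower, 10 higher), -0.24 after median-ratio scaling and -0.065 after quantile normalization. The median level was 2.24 TPM for KRAB genes and 6.44 TPM for the other coding members. Of the 30 members with a mean over 10 TPM, 3 had KRAB. Among members that averaged 5 TPM or more, the median log2 change was -0.09 over 10 KRAB genes and -0.38 over 47 coding genes without KRAB. The summed level of the KRAB genes was 198 to 241 TPM in control and 162 to 194 TPM after doxorubicin.

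ZNF721, a KRAB gene with 23 fingers on chromosome 4, went from 11.9, 12.7 and 13.1 TPM to 6.68, 6.14 and 8.01 TPM. Its log2 fold change was -0.78 ± 0.12 (SE; adjusted p = 0.000336, limma). ZNF23, a KRAB gene with 16 fingers, went from 8.02, 9.73 and 8.23 TPM to 4.42, 4.06 and 5.20 TPM, a log2 change of -0.80 ± 0.13. Both were called lower on all 3 scales. They share 24.1% and 42.4% of their 60-base stretches with other genes, so their counts are less certain. ZNF688 was the KRAB gene that rose the most. It was at 6.73, 6.18 and 4.91 TPM in control and 9.95, 11.9 and 8.24 TPM after doxorubicin, with no overlap (log2 change 0.66 ± 0.15, adjusted p = 0.00315, limma). It has 2 fingers, while the median over KRAB members was 12.

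Of 26 genes of the KRAB co-repressor machinery and its partners 11 were listed and 10 tested, and TRIM28 and SETDB1 were not among the listed genes. On TPM 8 of the 10 were called lower and 0 higher, after median-ratio scaling 6 and 0, and after quantile normalization 5 and 0. The shares of all genes called lower on these scales were 48.5%, 37.5% and 29.2%, and those called higher 22.7%, 43.8% and 32.9%. All 10 means were lower on TPM, so that 0 were higher at an unadjusted p under 0.05 too (limma). UHRF1, which guides maintenance methylation to new DNA, was at 20.2, 21.2 and 19.5 TPM in control and 4.11, 3.16 and 4.88 TPM after doxorubicin (log2 change -2.09). DNMT1, the maintenance DNA methyltransferase, had a log2 change of -0.96. The heterochromatin proteins CBX5 and CBX1 had changes of -0.77 and -0.67. CHD4 (-0.21) and TASOR (-0.20) were not called.

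The 9 SCAN members were all tested. On TPM 5 were called lower (55.6%) and 0 higher (0 also at an unadjusted p under 0.05 in limma). The counts were 1 and 2 after median-ratio scaling and 0 and 2 after quantile normalization. Among all genes tested 48.5% were lower and 22.7% higher on TPM, with the shares on the other scales given above. ZSCAN30 went from 6.99, 5.67 and 5.77 TPM to 3.99, 4.22 and 5.33 TPM (log2 change -0.38, adjusted p = 0.0276, limma). Its call was lost without control replicate 1 (-0.29), doxorubicin replicate 1 (-0.31) or doxorubicin replicate 2 (-0.34). ZSCAN18, the most abundant ZSCAN gene, was at 13.5, 12.9 and 17.8 TPM in control and 14.4, 15.8 and 15.6 TPM after doxorubicin. These ranges overlapped (log2 change 0.06 ± 0.13, adjusted p = 0.661, limma).

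Several C2H2 members with neither KRAB nor BTB were among the largest falls. ZNF770 went from 2.77, 3.91 and 2.56 TPM to 1.37, 0.68 and 1.38 TPM (log2 change -0.93 ± 0.18, adjusted p = 0.00115, limma). ZNF532 lay between 12.0 and 12.4 TPM in every control library and at 6.78, 4.40 and 7.70 TPM after doxorubicin (-0.88 ± 0.16). ZNF521, a transcriptional co-regulator of mesenchymal and blood progenitors, spread more, from 5.54, 11.2 and 8.34 TPM to 5.44, 4.14 and 3.61 TPM. Its log2 change was -0.76 ± 0.22 and its groups came within 0.1 TPM of each other. The pseudogene ZNF542P, for which no domains were determined, went from 6.41, 8.08 and 8.51 TPM to 4.01, 3.37 and 4.72 TPM (-0.78).

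ZNF207 (BuGZ), which loads the spindle checkpoint protein BUB3 at kinetochores, was second to ZFP36 in control level. It was at 100, 103 and 96.0 TPM in control and 64.3, 55.5 and 71.0 TPM after doxorubicin. No library overlapped, and the log2 fold change was -0.65 ± 0.09 (SE; adjusted p = 0.00015, limma). A list of members with roles from general knowledge was drawn up with earlier results of these data known. Of its genes 22 were listed and 19 tested, with 13 called lower (68.4%) and 3 higher (15.8%) on TPM. After median-ratio scaling 11 were lower and 5 higher, and after quantile normalization 7 and 4. The shares over all genes tested were 48.5% lower and 22.7% higher on TPM. ZNF143, an activator at many promoters, had a log2 change of -0.48, and its call was lost without control replicate 1 (-0.38, adjusted p = 0.0597, limma). ZNF335, a nuclear hormone receptor co-regulator, changed by -0.57 and ZNF148 (ZBP-89) by -0.54. ZNF281, a factor linked to stemness, changed by -0.43, and its call was lost in 4 of the 6 refits that left out a library (all but those without control replicate 3 or doxorubicin replicate 3). ZNF335, ZNF148, ZNF143 and ZNF281 were not among the genes called on all 3 scales.

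**Figure D3:**
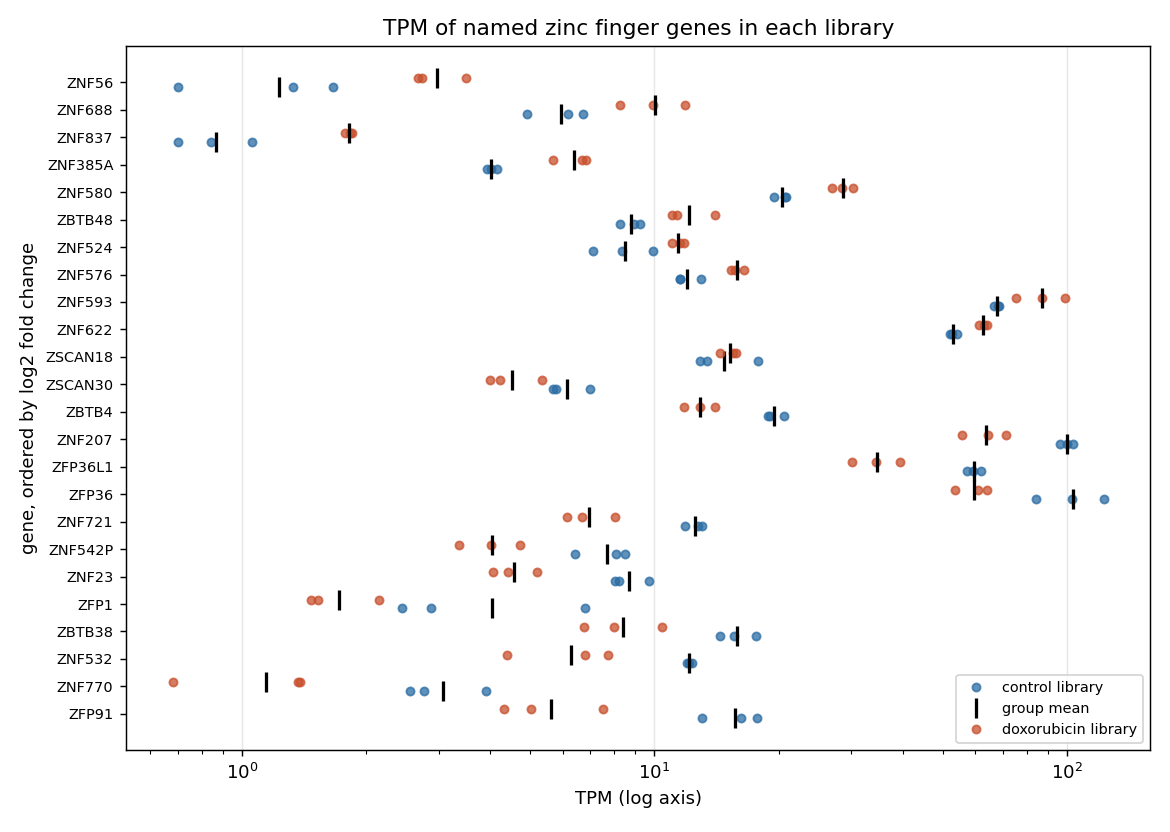
TPM (log axis) of 24 zinc finger genes in each of the 3 control (blue) and 3 doxorubicin (orange) libraries, with group means as black ticks, ordered by log2 fold change from ZFP91 (lowest) to ZNF56 (highest). In ZFP91 the doxorubicin libraries lay at 4.31 to 7.52 TPM and the control libraries at 13.1 to 17.7 TPM, while the groups of ZSCAN18 overlapped.

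On TPM the 13 rises were smaller than the largest falls, and only ZNF56 passed 0.8 on the log2 scale. With quantile normalization ZNF56 (1.15), ZNF688 (0.99), ZNF385A (0.91) and ZNF837 (0.82) did, and the change of ZNF56 was then larger in size than that of ZFP91 (-1.04). They were ZBTB48, ZNF56, ZNF185, ZNF219, ZNF385A, ZNF524, ZNF554, ZNF576, ZNF579, ZNF580, ZNF593, ZNF688 and ZNF837, and 2 of them had KRAB (ZNF554 and ZNF688). ZNF56 is a pseudogene and ZNF185 is a LIM protein of the actin cytoskeleton in which no C2H2 finger was found. ZNF185 (0.37) and ZNF219 (0.29) lost the call in 4 of the 6 fits without a library, at lowest values of 0.30 and 0.23. ZNF579 (0.31) lost it in 3 of 6, at a lowest value of 0.25, and ZNF554 (0.37) in 3 of 5, at 0.31. ZNF56 went from 1.66, 1.33 and 0.70 TPM to 3.50, 2.73 and 2.68 TPM (log2 change 0.85 ± 0.18, adjusted p = 0.00177, limma). ZNF837 went from 0.70, 1.06 and 0.84 TPM to 1.78, 1.85 and 1.83 TPM (0.60 ± 0.13). In both, every doxorubicin library was above every control library.

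ZNF385A (HZF), a partner of p53 that shifts its choice of target genes, lay at 3.92 to 4.15 TPM in control and at 6.69, 6.81 and 5.67 TPM after doxorubicin. Its mean was 1.59-fold higher, with a log2 fold change of 0.55 ± 0.12 (SE; adjusted p = 0.0021, limma). ZNF580, a small protein of 3 fingers, went from 20.9, 20.7 and 19.5 TPM to 26.9, 28.5 and 30.3 TPM (0.47 ± 0.09). Its transcripts overlap ZNF581 on the same strand and share 10.6% of their 60-base stretches with other genes. ZNF576 went from 11.6, 11.5 and 13.0 TPM to 15.3, 15.7 and 16.5 TPM (0.37 ± 0.10). ZNF524 went from 9.95, 7.10 and 8.37 TPM to 11.02, 11.5 and 11.8 TPM, and its log2 change of 0.40 lost its call without control replicate 2 (0.30, adjusted p = 0.0645, limma).

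The members known from ribosome assembly were abundant and had higher means after doxorubicin. ZNF593 (yeast Bud20), an export factor of the large ribosomal subunit, was at 66.5, 68.2 and 68.3 TPM in control and 86.8, 99.1 and 75.1 TPM after doxorubicin. Its log2 fold change was 0.35 ± 0.09 (SE; adjusted p = 0.00652, limma), and it was 0.25, under the fold required, without doxorubicin replicate 2. ZNF622 (yeast Rei1), which acts on the same subunit in the cytoplasm, went from 52.0, 54.3 and 52.7 TPM to 64.0, 63.1 and 61.1 TPM. The groups did not overlap and the adjusted p was 0.00744 (limma), but its log2 change of 0.24 was under the fold of 1.2 (0.26), so it was not called. ZNF219, at 0.29, was the called gene nearest to that limit. By adjusted p, ZBTB44 (0.0499) was just inside and ZNF292 (0.0526) just outside (limma). ZNF706, a single-finger protein, was at 34.6, 34.8 and 38.1 TPM in control and 39.5, 48.0 and 33.2 TPM after doxorubicin, which overlap (log2 change 0.15).

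For 14 members the mean over the 6 libraries was under 1 TPM, the highest of them being ZNF365 at 0.938 TPM, while the lowest tested member was ZBTB39 at 1.08 TPM. Of the 14, 10 had a lower and 4 a higher mean after doxorubicin. ZNF365, which helps to resolve damaged replication forks, was at 1.11, 1.62 and 1.10 TPM in control and 0.68, 0.46 and 0.66 TPM after doxorubicin. ZNF695, a KRAB gene, was at 1.57, 0.72 and 1.14 TPM and then 0.17, 0.01 and 0.26 TPM. ZNF423, a regulator of adipocyte commitment, was listed at 0 in every control library and at 0.07, 0.06 and 1.06 TPM after doxorubicin, so doxorubicin replicate 3 carried its mean. ZNF385C was also listed at 0 in every control library and at 0.20, 0.05 and 0.13 TPM after doxorubicin.

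Chromosome 19 held 43 of the 132 members, of which 40 were tested. On TPM 17 were called lower and 7 higher (median log2 change -0.29), after median-ratio scaling 12 and 15, and after quantile normalization 5 and 17. On TPM these shares of 42.5% lower and 17.5% higher were near those of all genes (48.5% and 22.7%). Of the 78 tested members elsewhere 50 were lower and 6 higher on TPM (median -0.42), 35 and 18 after median-ratio scaling, and 15 and 18 after quantile normalization. Within chromosome 19 the medians of KRAB genes and of other genes lay apart. Its 22 tested KRAB genes had a median of -0.41 on TPM (12 lower, 1 higher), -0.27 after median-ratio scaling and -0.13 after quantile normalization. Its 16 tested coding genes without KRAB had a median of 0.08 on TPM (4 lower, 5 higher), 0.30 after median-ratio scaling and 0.34 after quantile normalization. Off chromosome 19 the order was the other way. There the 21 tested KRAB genes had medians of -0.31 on TPM, -0.18 after median-ratio scaling and -0.09 after quantile normalization. The 56 tested coding genes without KRAB had -0.45, -0.27 and -0.17. No test of these differences was made.

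Members within 1000000 bp of their neighbour on chromosome 19 formed runs, with 3 of at least 6 genes. In the run at chr19:36214602-37469275, 5 of 6 tested genes were called lower and 0 higher on TPM, ZNF567 being the exception with wide spread (5.25, 8.01 and 1.90 TPM, then 7.44, 2.13 and 1.42 TPM). After median-ratio scaling 4 were lower and after quantile normalization 2, with 0 higher on either. In the run at chr19:52012765-53580269 all 6 genes had KRAB, and 4 were called lower and 0 higher on TPM, 2 and 0 after median-ratio scaling, and 1 and 0 after quantile normalization. Among all genes tested, 48.5% were called lower and 22.7% higher on TPM. Every tested gene of both runs had a negative log2 change on TPM. In the latter run, ZNF468 was high in control replicate 2 (12.9, 22.1 and 9.73 TPM, then 12.1, 10.96 and 12.4 TPM) and shares 54.2% of its 60-base stretches with other genes, mainly ZNF320. The run at chr19:55576770-58481230, near the end of the long arm, held 17 members, and of its 16 tested genes 4 were higher, 4 lower and 8 not called, with a median of 0.16 on TPM. After median-ratio scaling 10 of them were higher and 3 lower, and after quantile normalization 11 and 1. ZNF580, ZNF524, ZNF579 and ZNF837 were its rises on TPM.

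The members' changes went with the GC content and the span of their genes, as did those of all genes. Across the 118 tested members the log2 fold change had a Spearman correlation of 0.40 with the median GC content of the gene's transcripts, and across 5699 genes it was 0.43. On the other 2 scales both lay between 0.41 and 0.43. With the span of the gene the correlation was -0.29 across members and -0.44 across 5700 genes. These points are genes of the same 6 libraries, so they are no independent replicates. In the third of members with the highest GC content (54.4% to 70.5%), 10 were higher and 14 lower on TPM, 21 and 11 after median-ratio scaling, and 22 and 4 after quantile normalization. In the third with the lowest (35.5% to 44.0%), 0 were higher (0 also at an unadjusted p under 0.05 in limma) and 26 lower on TPM, 2 and 16 after median-ratio scaling, and 2 and 8 after quantile normalization. Over all genes 22.7% were higher and 48.5% lower on TPM. The shares were 43.8% and 37.5% after median-ratio scaling, and 32.9% and 29.2% after quantile normalization. On TPM the 25.6% higher in the third with the highest GC content was thus near the share of all genes. The 13 rises had a median GC content of 61.3% and a median span of 9280 bp, against 45.5% and 26811 bp for the 67 falls. With the number of fingers the correlation was -0.03 over 115 members. The part of GC content and span in the calls was not tested.

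**Figure D4:**
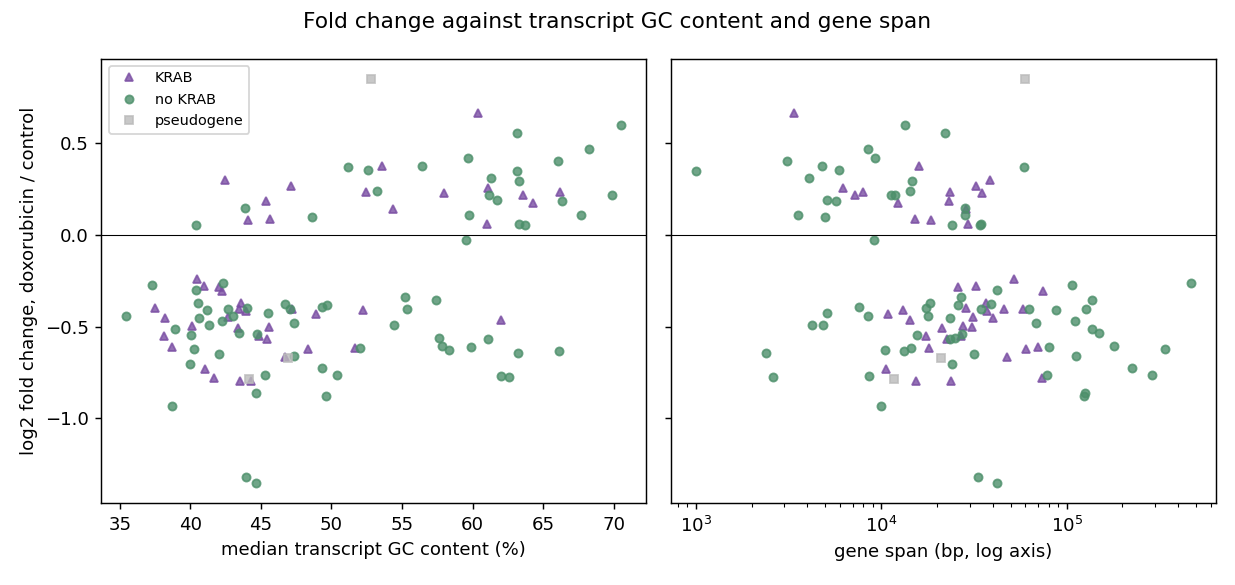
Log2 fold change on log2(TPM + 1) of the 118 tested zinc finger genes against the median GC content of their transcripts (left, %) and against gene span (right, bp, log axis), with KRAB genes as triangles, other coding genes as circles and pseudogenes as squares. Rises lay mostly at high GC content and short span, and KRAB genes were mixed with the others.

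Among C2H2 factors outside the name rule, 44 of 89 were listed and 40 tested, with 31 called lower and 0 higher on TPM. After median-ratio scaling 26 of 39 were lower and 3 higher, and after quantile normalization 16 and 3 of 40. Over all genes 48.5% were lower and 22.7% higher on TPM, 37.5% and 43.8% after median-ratio scaling, and 29.2% and 32.9% after quantile normalization. On TPM 3 of the 40 had a higher mean, none of them with an unadjusted p under 0.05. ZEB1, a repressor of epithelial genes, went from 23.6, 24.9 and 23.5 TPM to 7.45, 7.42 and 10.3 TPM (log2 change -1.43), and its relative ZEB2 changed by -0.97. KLF6 changed by -0.93, CTCF, the insulator protein, by -0.49 and SP1 by -0.46.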

How the data were processed

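Values were analysed for 6 of the 9 RNA-seq libraries of the series (2 × 150 bp reads), those of the control and doxorubicin groups. Per the labels, each group has 3 libraries. The authors deposited a value per gene and library in a unit that the table does not name, and these were taken as TPM, because the submitters' notes name RSEM and because the sums of the listed genes leave room for the unlisted genes within the fixed total of TPM. Further columns of the authors give group means in TPM, a ratio of those groups (fold change) with its log2 value, and p-values before and after adjustment, and none of these gave a result here. The submitters' notes further name CASAVA, HISAT2, StringTie and the mouse build GRCm38, although the deposited gene identifiers are human. Versions and the annotation are not given in the sources used here. Since TPM carries no read numbers, the depth of the libraries is unknown, and intervals that need counts are left out.

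The fit used log2(TPM + 1) of the 5721 of 6499 genes that averaged 1 TPM or more, with a separate mean for each group, in limma 3.58.1 (trend and robust options of eBayes, statmod 1.5.0) under R 4.3.3. A gene was called at a fold over 1.2 and a Benjamini-Hochberg adjusted p under 0.05 over all genes tested. Fold changes on this scale understate those of low genes. The design foresaw this fit for normalized values. The steps were tested on simulated data with the spread of the real genes. Of 67 genes changed 1.5-fold, 46 were called in the right direction, as were 67 of 67 at 2-fold and 65 of 66 at 3-fold. In that simulation 8 unchanged genes were called. A change of 1.5-fold can thus go uncalled. Of the 5721 genes in that run, only those counted at these folds were changed. In the real libraries 71.2% of the genes tested were called in either direction. Whether the rates of that run hold at such a share was not tested. Replicate numbers were not used as a block, since the deviations of same-numbered libraries correlated at -0.06, -0.19 and -0.23. Gene models came from GENCODE 29 (GRCh38), matched for all 132 members by identifier. Fingers were counted as C-X(2-4)-C-X(12)-H-X(2-6)-H/C in translated coding sequences, and KRAB and SCAN domains were found with profiles built from 177 and 35 seed windows (pyhmmer 0.12.3, E-value under 1e-05). Promoter windows were from RefSeq (GRCh38.p14). Antisense transcripts with hyphenated names were left out of the members, and 72 members overlap a gene on the other strand, where the strand setting of the counting is not given.

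The members and gene lists were chosen with earlier results of these data known, and the motifs and runs on chromosome 19 after values were seen. Named genes were ZFP91, the 8 largest rises and falls that passed the adjusted p with no overlap, and the 5 highest means. The highest and the most changed gene of each name family, members of the role list and genes next to a threshold were also named. Genes with wide spread, ZNF695, ZNF385C and genes of the other lists were chosen after their values were seen.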

Additional observations from a re-analysis of the deposited data

How the results depend on the processing

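Leaving out a library gave 10 to 11 zinc finger genes higher and 50 to 71 lower, with a median of -0.475 to -0.341 and ZFP91 at -1.55 to -1.21, and 43 genes were lower in every such fit. Over all genes these fits gave 1185 to 1275 higher and 2503 to 2820 lower, of 5711 to 5730 tested. The share of all genes that were lower in every such fit is not given here. Median-ratio scaling gave 33 higher genes and a median of -0.24. Quantile normalization gave 35 higher and 20 lower and a median of -0.077. A fold over 1.5 gave 3 higher and 29 lower. With a mean of at least 5 TPM fewer genes were tested, and 9 of 59 zinc finger genes were higher and 31 lower. Over all genes that filter gave 1030 higher and 1870 lower of 4203. The cause of the shifts with scaling was not tested. The other alternatives (pseudocount 0.1, no filter on low values, no trend and no robust fit, unadjusted p, no minimum fold, and members sharing under 5% of 60-base stretches) kept the counts within 1.5 times. Over all genes, higher and lower calls were 1301 and 2775 on TPM, 2507 and 2145 with median-ratio scaling, and 1883 and 1673 with quantile normalization, and a fold over 1.5 gave 432 and 1509. With the replicate block 10 zinc finger genes were higher and 61 lower, and all genes gave 1222 and 2670. Same-numbered libraries did not deviate together.

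The sign turned with quantile normalization for ZNF407 (0.054), ZNF507 (0.015), ZNF516 (0.0094), ZNF611 (0.016), ZNF644 (0.066), ZNF692 (0.093, and 0.19 with median-ratio scaling), ZNF84 (0.11) and ZSCAN2 (0.038), of which ZNF516 and ZSCAN2 were called lower on TPM. When a library was left out, it turned within the ranges of ZNF12 (-0.04 to 0.18), ZNF121 (-0.017 to 0.13), ZNF468 (-0.49 to 0.068), ZNF587 (-0.031 to 0.26), ZNF611 (-0.61 to 0.0089), ZNF692 (-0.14 to 0.071), ZNF707 (-0.15 to 0.24) and ZSCAN18 (-0.022 to 0.20), none of which was called on TPM. Median-ratio scaling ended 20 of the 67 lower calls and quantile normalization 47 (45 by adjusted p and 2 by fold), and neither ended a higher call. Unknown depth limits the genes under 1 TPM most.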

Other observations

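The 8 antisense and divergent transcripts named after zinc finger genes, which were left out of the members for their hyphenated names, all had a higher mean after doxorubicin, and their host genes were not among the listed genes. Of these, 4 were called higher on TPM (limma, adjusted p under 0.05), where 22.7% of all genes tested were called higher. The 4 calls are for TPM alone. Over all genes tested, 2654 of 5721 had a higher mean after doxorubicin. ZNF232-AS1, the most abundant, was at 12.8, 10.7 and 16.0 TPM in control and 18.7, 22.3 and 20.3 TPM after doxorubicin (log2 change 0.61 ± 0.14, adjusted p = 0.003, limma). ZNF426-DT went from 0.98, 1.2 and 1.11 TPM to 2.94, 2.73 and 1.79 TPM (0.72), ZNF793-AS1 from 0.67, 1.96 and 0.75 TPM to 2.0, 2.75 and 2.29 TPM (0.70), and ZNF561-AS1 from 3.61, 2.41 and 3.29 TPM to 4.38, 4.33 and 6.66 TPM (0.57). ZSCAN16-AS1 and ZBTB11-AS1 overlapped between groups. ZNF497-AS1 and ZNF503-AS1 were under 1 TPM in every library and so were not tested, and ZNF503-AS1 was listed at 0 in the controls. Without strand information, reads of these transcripts and of their hosts cannot be told apart.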
